A study of Homo sapiens with 8 samples.

Results

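Cluster cells treated with a γ-secretase inhibitor (GSI) were set against untreated empty-vector cells, to ask which GSI changes were still there once the miR-17-92 cluster had been added and which were back at the untreated level. The comparison holds 4 of the 8 arrays of the series, 2 on each side, chosen by their titles: the miRNA17-92 arrays with GSI, and the Empty-V arrays with DMSO. All 8 arrays carry RNA of CUTLL1 (spelled CUTTL1 in one label), a human T-cell lymphoma line with the t(7;9) translocation that joins NOTCH1 to the T-cell receptor β locus. The cells had been infected with a lentivirus that also encodes GFP, carrying either the miR-17-92 cluster, expressed constitutively (cluster cells), or no insert (Empty-V cells), and were sorted for GFP as a pool. Each was then kept for 2 days in 1 µM GSI or in DMSO, the solvent, which gives 4 groups of 2: cluster cells with GSI, Empty-V cells with GSI, cluster cells with DMSO and Empty-V cells with DMSO. The 2 arrays of a group come from separate experiments, so p-values measure the spread between these arrays only.

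NOTCH1 is a receptor whose intracellular part is cut free by γ-secretase, enters the nucleus and joins the DNA-binding protein RBPJ to switch on genes such as HES1, NRARP and DTX1. In T-cell leukemia this signal is often permanently on, and a GSI stops it by blocking the cut. The miR-17-92 cluster is one primary transcript that is processed into several miRNAs, which pair through their seeds with messenger RNAs and lower them; it is known as an oncogenic cluster in lymphoid cells and is itself driven by MYC, a NOTCH1 target in T cells.

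The vector's miRNAs are the agent that distinguishes the treated arrays from plain GSI treatment. Their mature sequences, from RefSeq on GRCh38.p14, lie on the plus strand of chromosome 13 inside the cluster at chr13:91350605-91351391. Capitals mark the seed, bases 2 to 8, and the 6 sequences hold 4 distinct seeds.
miR-17-5p: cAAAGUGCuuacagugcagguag
miR-20a-5p: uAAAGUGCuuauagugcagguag
miR-18a-5p: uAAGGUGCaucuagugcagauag
miR-19a-3p: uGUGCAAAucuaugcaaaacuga
miR-19b-3p: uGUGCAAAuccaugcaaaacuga
miR-92a-3p: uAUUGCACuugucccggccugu
miR-17-5p and miR-20a-5p share a seed, as do miR-19a-3p and miR-19b-3p, and the seed of miR-18a-5p matches that of miR-17-5p at 6 of 7 bases. The arrays measure messenger RNA of 21448 probe sets, and no probe set carries the name of the host gene of the cluster; whether one of the unnamed probe sets reads its transcript is not known here.

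GSI-treated cluster cells differed from untreated Empty-V cells at 549 probe sets, 2.56% of those tested (limma, adjusted p below 0.05 over all probe sets; a probe set past this threshold is called below). The rises numbered 316 (1.47%) and the falls 233 (1.09%), and 426 probe sets of the array were more than 1 log2 unit apart. GSI in Empty-V cells, measured against the same Empty-V arrays with DMSO, gave 1601 called probe sets (7.46%), 816 of them higher (3.8%) and 785 lower (3.66%). GSI in cluster cells, against their own DMSO arrays, gave 336 (1.57%), and the cluster under DMSO gave 9 (0.042%). Set against Empty-V cells with GSI, cluster cells with GSI differed at 230 (1.07%, the cluster under GSI), 107 higher (0.499%) and 123 lower (0.573%). The standard deviation of the difference over all probe sets was 0.40 log2 units for GSI-treated cluster cells against untreated Empty-V cells, and 0.47 for GSI in Empty-V cells. These counts rest on few arrays. Without one array of the cluster cells with GSI, 208 (replicate 1) or 254 (replicate 2) probe sets were called in place of the 549, and without one array of the Empty-V cells with DMSO 223 or 218.

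Of the 1601 GSI changes in Empty-V cells, 371 remained, 25 were reduced, 121 returned, 1 was reversed and 1083 could not be resolved. A change is said here to have remained where cluster cells with GSI also differed from untreated Empty-V cells in the same direction and did not differ from Empty-V cells with GSI in the opposite one. It was reduced where they differed from both, and it returned where they differed from Empty-V cells with GSI, away from the GSI change, and not from untreated Empty-V cells. Because remaining is measured from untreated Empty-V cells, the class can also hold genes already shifted in cluster cells with DMSO. PRKCH is an example, with 1.84 for the cluster under DMSO (adjusted p = 0.00998) and −0.52 for GSI in cluster cells (adjusted p = 0.202). Among the 816 rises, 213 remained (26.1%), 22 were reduced and 58 returned (7.11%), with 523 not resolved. Among the 785 falls, 158 remained (20.1%), 3 were reduced and 63 returned (8.03%), with 560 not resolved. The comparisons share arrays: Empty-V cells with DMSO serve in both differences from the untreated level, and Empty-V cells with GSI in both the GSI change and its difference from cluster cells. The count of 121 is the least steady. It stood at 1 (SCG2) and 3 (SCG2, FCMR and DNTT) without an array of the cluster cells with GSI, and at 6 and 2 without one of the Empty-V cells with GSI. All of these were rises, and none of the 63 falls kept its class without any 1 of these 4 arrays. It stood at 31 without either Empty-V array with DMSO and at 47 without either cluster array with DMSO. The split of rises and falls among the returned changes also moved, being 58 and 63 as reported, 198 and 312 with dim probe sets left out, and 256 and 410 with an intensity trend and a robust fit. Of 38 named genes called between both GSI groups, SCG2 alone kept that call without each of the 8 arrays in turn. The 371 stood at 174 and 196, 289 and 276, 165 and 160, and 303 in the same order of arrays.

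**Figure D1:**
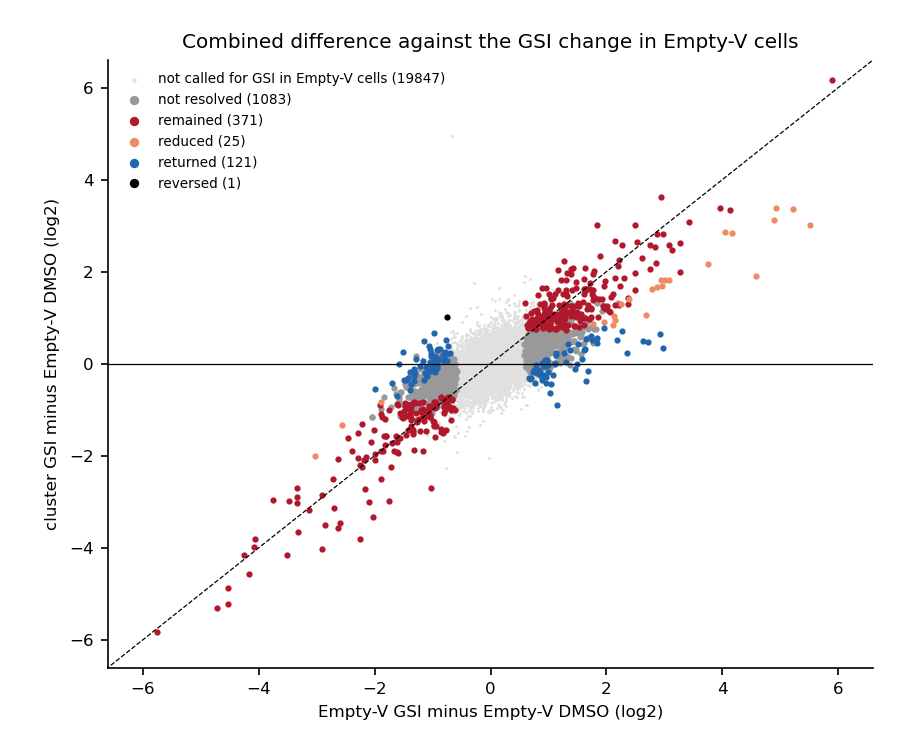
Each point is a probe set, with the log2 difference of Empty-V cells with GSI minus Empty-V cells with DMSO on the x axis and of cluster cells with GSI minus Empty-V cells with DMSO on the y axis, coloured by what became of the GSI change. By the rule that set the classes, the 371 changes that remained lie around the dashed line of equal differences (47.5% to 260% of the GSI change left). The 121 that returned lie around the horizontal at 0 (−77.4% to 43.8% left). Both axes use the same Empty-V arrays with DMSO.

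The size of the changes in each class is a description, since the class itself was set by the same values. Among those that remained the part of the GSI change still there ran from 47.5% to 260%, and the median was 1.19 for the rises and −1.29 for the falls in cluster cells with GSI, against 1.28 and −1.38 in Empty-V cells with GSI, each measured from untreated Empty-V cells. Of the 371, 87 rises and 76 falls were larger with the cluster than without it. The 121 that returned had a median of −0.01 for the rises and −0.02 for the falls in cluster cells with GSI, against 1.11 and −1.03 in Empty-V cells with GSI. For 115 of them, less than 50% of the GSI change was left in either direction, and for 49 the whole 95% interval of the difference from untreated cells lay within 50% of the GSI change. The 1083 that were not resolved lay between: medians of 0.43 and −0.37 in cluster cells with GSI, against 0.89 and −0.86 in Empty-V cells with GSI, with 1028 of the 1083 still on the side of the GSI change. For these, 2 arrays per group did not place the cluster cells with GSI at either level.

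The same question was read in arrays that had no part in choosing the probe sets. The 500 probe sets that rose furthest with GSI in the Empty-V cells of set 1 had a median difference in set 2 of 0.56 in cluster cells with GSI, against 0.96 in Empty-V cells with GSI, which is 58.1% of it, and 81.4% of the 500 were still above the untreated level. With the choice made in set 2, the medians in set 1 were 0.48 in cluster cells with GSI and 0.87 in Empty-V cells with GSI (55.2%). The 500 strongest falls gave −0.48 in cluster cells with GSI against −0.86 in Empty-V cells with GSI (55.8%) in set 2, and −0.33 against −0.71 (46.8%) in set 1. In each of the 4 readings the GSI change was smaller in cluster cells for 66.6 to 76.4% of the probe sets. The untreated Empty-V array is shared within each reading.

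Most of the NOTCH1 targets that fell with GSI were still low in cluster cells. Of 26 measured, 9 were lower and 2 higher in cluster cells with GSI than in untreated Empty-V cells, against 13 lower and 2 higher in Empty-V cells with GSI, and the median of the list was −0.72 and −0.83, beside −0.01 and 0.01 for all probe sets. Among all probe sets, 1.09% were lower and 1.47% higher in cluster cells with GSI. In Empty-V cells with GSI these shares were 3.66% and 3.8%. Of the 13, 9 remained and 4 were not resolved. Each array measures a bulk of cells, in which fewer cells expressing a gene and less RNA per cell cannot be told apart.

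NRARP, a feedback inhibitor that binds the NOTCH complex itself (chr9:137299631-137302271), read 4.19 and 4.46 log2 units in cluster cells with GSI, 4.26 and 4.54 in Empty-V cells with GSI, 10.51 and 10.24 in cluster cells with DMSO and 9.98 and 10.33 in Empty-V cells with DMSO. Both GSI groups lay together, far below both DMSO groups. The difference from untreated Empty-V cells was −5.83 (SE 0.20, adjusted p = 2.98e-06), against −5.76 for GSI in Empty-V cells, and it was the largest fall on the array among named genes. CR2, the complement receptor CD21, read 7.70 and 7.76 in cluster cells with GSI, 9.29 and 9.25 in Empty-V cells with GSI, 11.07 and 10.95 in cluster cells with DMSO and 11.61 and 11.45 in Empty-V cells with DMSO. Its fall of 3.80 was 168% of the GSI fall in Empty-V cells, and cluster cells with GSI lay below Empty-V cells with GSI (adjusted p = 0.00691, and 0.0508 to 0.0785 without any 1 of the 4 GSI arrays). DTX1, an E3 ligase that modulates NOTCH, averaged 8.21 in cluster cells with GSI, 8.85 in Empty-V cells with GSI and 12.36 in untreated Empty-V cells, a difference of −4.15 (SE 0.30).

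HES1, the repressor that is the standard readout of NOTCH signalling (chr3:194136148-194138732), read 6.91 and 6.69 in cluster cells with GSI, 5.89 and 6.15 in Empty-V cells with GSI, 9.32 and 9.68 in cluster cells with DMSO and 9.85 and 9.68 in Empty-V cells with DMSO. The cluster cells with GSI lay above Empty-V cells with GSI and well below the untreated cells, at −2.97 (SE 0.19, adjusted p = 4.51e-05) against −3.75 for GSI in Empty-V cells. The 0.78 between both GSI groups did not pass (adjusted p = 0.0848). Its promoter is shown because it carries the binding core of RBPJ: the 300 bases at chr3:194135898-194136197 (GRCh38.p14, plus strand, 250 before the RefSeq start and 50 after), 5′ to 3′, with the matches to TGGGAA in capitals.
HES1: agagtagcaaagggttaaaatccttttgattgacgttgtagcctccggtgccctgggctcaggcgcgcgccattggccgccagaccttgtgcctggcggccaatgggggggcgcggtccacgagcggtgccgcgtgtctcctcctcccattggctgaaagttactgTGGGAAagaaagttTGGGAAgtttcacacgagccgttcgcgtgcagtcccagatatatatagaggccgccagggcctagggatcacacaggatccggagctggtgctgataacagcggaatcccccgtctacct
The 2 matches start 84 and 70 bases before the transcription start. Among other NOTCH1 targets whose fall remained, the promoters of NRARP, CR2, PTCRA and NOTCH3 had no match, and that of HES4 had 1. TGGGAA, read on both strands, stood in 14.5% of the promoters of named genes whose GSI fall remained (110 with a promoter), against 22.5% of all named genes on the array and 24.3% of all promoters of this length.

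The other NOTCH1 targets whose fall remained were SHQ1, TASP1, PTCRA, HES4 and NOTCH3, and 1 rise remained, that of GATA3, a T-cell transcription factor (1.21, against 1.74 for GSI in Empty-V cells). PTCRA, the pre-T-cell receptor α chain, was at −1.58, HES4, a relative of HES1, at −2.09 and the receptor NOTCH3 at −1.31. These 4 calls depend on single arrays. Without the replicate-1 array of the cluster cells with GSI the adjusted p was 0.0817 for PTCRA, 0.0856 for HES4 and 0.129 for NOTCH3, and without the replicate-2 array it was 0.104 for NOTCH3. Without the replicate-1 array of the Empty-V cells with DMSO it was 0.0577 for GATA3 and 0.0592 for HES4, and without the replicate-2 array it was 0.0642 for PTCRA, 0.0615 for HES4 and 0.146 for NOTCH3. IL7R, HEY1, HEY2 and SKP2 fell with GSI in Empty-V cells and were not resolved in cluster cells. MYC, the growth regulator, read 11.10 and 11.15 in cluster cells with GSI, 11.44 and 11.07 in Empty-V cells with GSI, 11.35 and 11.59 in cluster cells with DMSO and 11.78 and 11.99 in Empty-V cells with DMSO. Its difference of −0.76 from untreated Empty-V cells did not pass (adjusted p = 0.077). Of 23 further NOTCH receptors, ligands and processing genes, a list that does not hold NOTCH1 and NOTCH3, none was called, against 3 higher for GSI in Empty-V cells.

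The rest of the 10 largest falls among named genes also remained, with 93.9% to 138% of the GSI fall left when measured from untreated Empty-V cells. BMP4, a secreted growth factor, read 9.38 and 9.61 in cluster cells with GSI, 9.88 and 10.28 in Empty-V cells with GSI, 14.44 and 14.55 in cluster cells with DMSO and 14.95 and 14.64 in Empty-V cells with DMSO. This was a difference of −5.30. MYO7B, an unconventional myosin, followed at −5.21, the kinase WNK2 at −4.87, MEST, an imprinted gene, at −4.56 and PCGF5, a polycomb subunit, at −4.15. In each, both GSI groups lay apart from both DMSO groups. DCLK3 and CPA4, also among the 10, were already lower in cluster cells with DMSO. The cluster under DMSO stood at −1.88 for DCLK3 (adjusted p = 0.0449) and at −1.38 for CPA4 (adjusted p = 0.133). GSI in cluster cells gave −2.14 and −2.60, against −2.91 and −4.08 for GSI in Empty-V cells. SMAD3, which carries TGF-β signals to the nucleus, was at −3.47, with 6.52 and 7.27 in cluster cells with GSI, 7.91 and 7.63 in Empty-V cells with GSI, 10.09 and 10.05 in cluster cells with DMSO and 10.36 and 10.36 in Empty-V cells with DMSO.

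The amino acid response held the most GSI falls that remained of any list. These genes, many of them driven by ATF4, import amino acids and make serine, glycine and one-carbon units, and the list also holds other genes of that response such as VEGFA. Of 28 measured, 11 were lower and none higher in cluster cells with GSI than in untreated Empty-V cells, against 18 lower and 1 higher in Empty-V cells with GSI. Of all probe sets, 1.09% were lower in the first comparison and 3.66% in the second. All 11 had fallen with GSI in Empty-V cells, and none of the list returned. The median was −0.74 in cluster cells with GSI, against −1.10 in Empty-V cells with GSI. With the set as a block, 8 of the list were lower, beside 9 of the NOTCH1 targets. Against their own DMSO arrays, cluster cells with GSI had 4 of the list lower (median −0.46), beside 11 of the NOTCH1 targets. The cluster under DMSO had a median of −0.24 for the list. VEGFA, the vascular growth factor, read 11.15 and 11.09 in cluster cells with GSI, 10.61 and 10.71 in Empty-V cells with GSI, 14.08 and 13.92 in cluster cells with DMSO and 13.96 and 14.05 in Empty-V cells with DMSO. The fall of 2.89 in cluster cells (adjusted p = 2.39e-05) was 86.2% of that in Empty-V cells. SLC7A11, the cystine carrier, read 11.14 and 11.19 in cluster cells with GSI, 11.10 and 11.41 in Empty-V cells with GSI, 12.98 and 12.69 in cluster cells with DMSO and 13.36 and 13.15 in Empty-V cells with DMSO. Its difference was −2.09. PSAT1, an enzyme of serine synthesis, was at −1.19, 65.6% of its GSI fall, and VLDLR, a lipoprotein receptor, at −1.92. The remaining members were the carriers SLC1A5, SLC7A1, SLC3A2 and SLC7A5, the glutathione-degrading CHAC1, and PHGDH and MTHFD2 of serine and one-carbon metabolism. The count of 11 became 4 without either array of the cluster cells with GSI, and 5 (replicate 1) or 4 (replicate 2) without one of the Empty-V cells with DMSO.

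**Figure D2:**
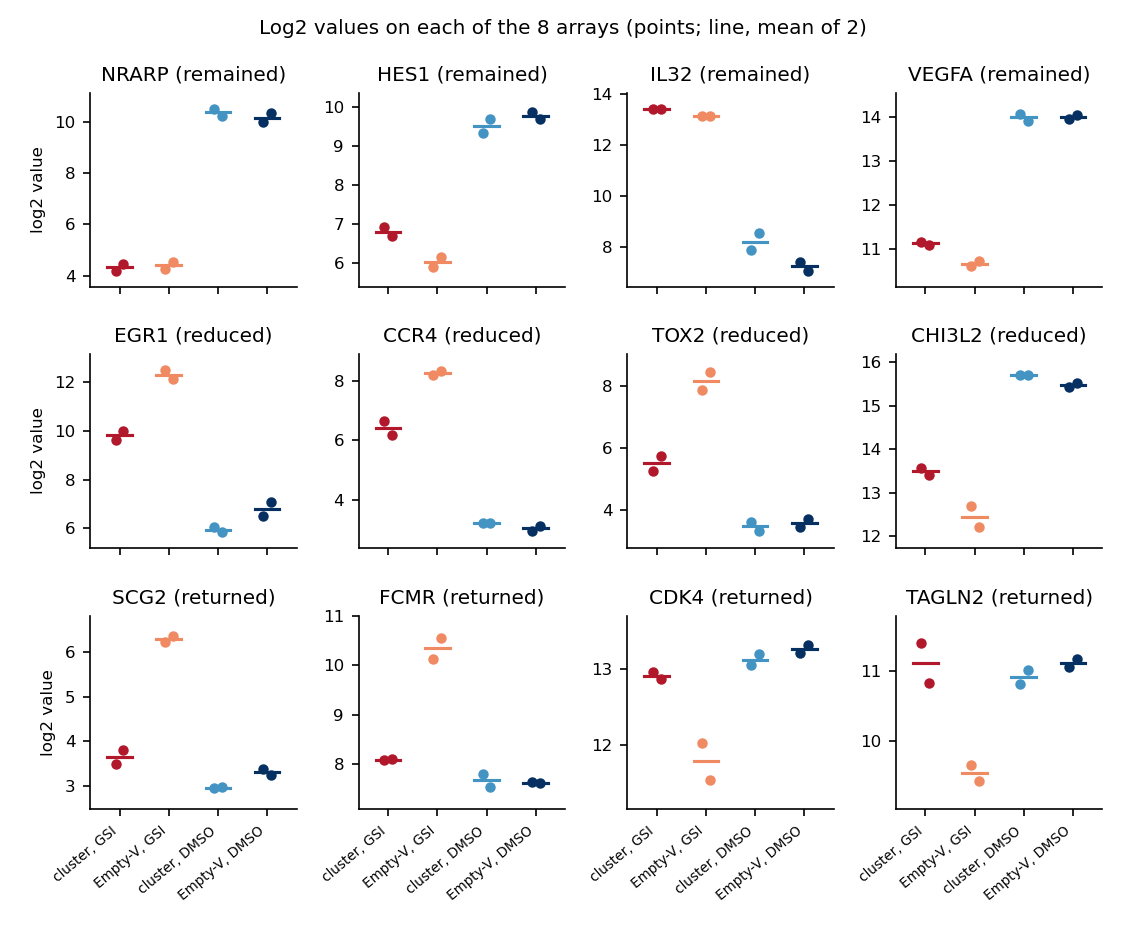
Log2 values of 12 genes on each array, with cluster cells with GSI at the left and Empty-V cells with DMSO at the right of every panel; a point is an array and a bar the mean of 2. The top row shows genes whose GSI change remained, the middle row genes whose change was reduced, and the bottom row genes whose change returned.

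Genes of T-cell maturation rose with GSI and most of those rises were still there in cluster cells. Of 39 surface and maturation genes, 17 were higher and none lower in cluster cells with GSI than in untreated Empty-V cells, against 20 higher and none lower in Empty-V cells with GSI, with medians of 0.65 and 0.91. Of all probe sets, 1.47% were higher in the first comparison and 3.8% in the second. Of the 20, 9 remained, 6 were reduced, 3 returned and 2 were not resolved.

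IL32, a cytokine of T and natural killer cells that is outside this list (chr16:3065403-3069530), had the largest rise on the array. It read 13.41 and 13.39 in cluster cells with GSI, 13.13 and 13.12 in Empty-V cells with GSI, 7.86 and 8.53 in cluster cells with DMSO and 7.41 and 7.05 in Empty-V cells with DMSO. The difference of 6.17 (SE 0.23, 95% interval 5.65 to 6.69, adjusted p = 2.98e-06) stood beside 5.90 for GSI in Empty-V cells. RAG1, which cuts T-cell receptor genes for rearrangement, read 13.58 and 13.71 in cluster cells with GSI, 12.54 and 12.41 in Empty-V cells with GSI, 11.28 and 11.10 in cluster cells with DMSO and 10.57 and 10.71 in Empty-V cells with DMSO. The 4 groups did not overlap, and the rise of 3.01 was 164% of that in Empty-V cells, with 1.17 between both GSI groups (adjusted p = 0.0229, and 0.0781 to 0.148 without any 1 of the 4 GSI arrays). PTPRC, the CD45 phosphatase of all lymphocytes, read 14.16 and 14.17 in cluster cells with GSI, 13.90 and 14.18 in Empty-V cells with GSI, 11.79 and 11.58 in cluster cells with DMSO and 11.61 and 11.41 in Empty-V cells with DMSO.

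RAG1 and CR2 were 2 of only 5 probe sets whose GSI change was extended, in the sense that it remained and cluster cells with GSI were also called beyond Empty-V cells with GSI. The other 3, named after their values were seen, were falls: the poly(A) polymerase TENT5C, the transcription elongation gene AFF3 and the WNT inhibitor APCDD1. The chemokine receptor CXCR6 rose by 3.63 and CCR7, the receptor that guides T cells into lymph nodes, by 2.47. Rises of 3.40 for PDE4D, a cyclic AMP phosphodiesterase, 3.33 for LAPTM5, a lysosomal protein that limits T-cell receptor signalling, 3.09 for the surface glycoprotein CD52 and 3.01 for PTCH1, the Hedgehog receptor, remained as well. The other maturation genes whose rise remained were TOX, CD1C, S1PR1, CD96 and CD5. CD5, which dampens T-cell receptor signals, lost its call without the replicate-1 array of the cluster cells with GSI (adjusted p = 0.124) or without an Empty-V array with DMSO (0.121 and 0.0642).

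Transcription factors of T-cell development were mixed in the same way. Of 36 measured, 9 were higher and 1 lower in cluster cells with GSI than in untreated Empty-V cells, against 16 higher and 2 lower in Empty-V cells with GSI, and the count of 9 was 5 without the replicate-1 array of the Empty-V cells with DMSO. Higher calls made up 1.47% of all probe sets in cluster cells with GSI and 3.8% in Empty-V cells with GSI. Rises of SATB1, TOX, GATA3, IKZF3, SOX4 and IKZF2 and a fall of ID1 remained. ARID5B, ID3 and TOX2 were reduced, and BACH2, NFATC1 and, among the falls, BCL11A returned.

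Changes were reduced mostly among strong rises, in a class that needs 2 calls and so favours large changes. The 22 reduced rises had a median of 1.75 in cluster cells with GSI, against 2.96 in Empty-V cells with GSI. EGR1, the growth-factor-induced zinc finger (chr5:138465479-138469303), read 9.64 and 10.00 in cluster cells with GSI, 12.52 and 12.12 in Empty-V cells with GSI, 6.05 and 5.84 in cluster cells with DMSO and 6.52 and 7.10 in Empty-V cells with DMSO. Cluster cells with GSI lay between the other levels and overlapped neither: 3.01 above untreated Empty-V cells (SE 0.24, adjusted p = 0.000158) and 2.50 below Empty-V cells with GSI (adjusted p = 0.00489), with 54.6% of the GSI rise left. The difference between both GSI groups missed the threshold without replicate 1 of the cluster cells with GSI (adjusted p = 0.065) or either Empty-V array with GSI (0.0508 and 0.058). Of 33 immediate early and ERK feedback genes, 7 were higher and none lower in cluster cells with GSI than in untreated Empty-V cells, against 14 higher and none lower in Empty-V cells with GSI. For all probe sets the shares higher were 1.47% and 3.8%. The rises of ETV5, DUSP6, SPRY1 and NR4A1 remained and those of EGR1 and IER3 were reduced. That of CD69 returned, and JUNB was called in cluster cells with GSI only.

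CCR4, a chemokine receptor of helper and regulatory T cells, read 6.65 and 6.17 in cluster cells with GSI, 8.20 and 8.32 in Empty-V cells with GSI, 3.24 and 3.24 in cluster cells with DMSO and 2.96 and 3.13 in Empty-V cells with DMSO. Of its rise, 64.5% was left. CCR9, the receptor of thymic and gut-homing T cells, read 11.50 and 11.47 in cluster cells with GSI, 13.06 and 13.02 in Empty-V cells with GSI, 7.55 and 7.05 in cluster cells with DMSO and 7.81 and 8.41 in Empty-V cells with DMSO. Here 68.5% was left. TOX2, a relative of TOX, read 5.27 and 5.74 in cluster cells with GSI, 7.87 and 8.47 in Empty-V cells with GSI, 3.63 and 3.34 in cluster cells with DMSO and 3.47 and 3.72 in Empty-V cells with DMSO. For TOX2, 41.8% was left. In all 3 genes the cluster cells with GSI stood clear of both Empty-V groups, although the call between both GSI groups was lost without at least 1 of the 4 GSI arrays (highest adjusted p 0.106 for CCR4, 0.174 for CCR9 and 0.065 for TOX2). Of the maturation genes, 9 were lower and 2 higher in cluster cells with GSI than in Empty-V cells with GSI, beside 0.573% and 0.499% of all probe sets. The few reduced falls were those of CHI3L2, NRN1 and POLD2, of which CHI3L2 and POLD2 lost the call between both GSI groups without any 1 of the 8 arrays. CHI3L2, a secreted chitinase-like protein, read 13.57 and 13.41 in cluster cells with GSI, 12.69 and 12.21 in Empty-V cells with GSI, 15.71 and 15.71 in cluster cells with DMSO and 15.44 and 15.53 in Empty-V cells with DMSO.

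Among the rises that returned, SCG2 had the largest GSI change. This gene of secretogranin II, a granule protein of neuroendocrine cells (chr2:223596940-223602361), read 3.48 and 3.79 in cluster cells with GSI, 6.22 and 6.35 in Empty-V cells with GSI, 2.94 and 2.96 in cluster cells with DMSO and 3.36 and 3.24 in Empty-V cells with DMSO. Only the Empty-V cells with GSI were high. The difference of cluster cells with GSI from untreated Empty-V cells was 0.34 (95% interval −0.05 to 0.72, adjusted p = 0.396) beside a GSI rise of 2.99 in Empty-V cells, and 2.65 separated both GSI groups (adjusted p = 0.000608, and at most 0.0226 without any 1 array). In the other 3 groups its values lie below 5.32, the median of all values, where differences are less certain.

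BACH2, a repressor that holds back T-cell effector programs, read 5.72 and 5.78 in cluster cells with GSI, 7.49 and 8.57 in Empty-V cells with GSI, 4.97 and 5.08 in cluster cells with DMSO and 5.11 and 5.09 in Empty-V cells with DMSO. FCMR, the Fc receptor for IgM, read 8.08 and 8.10 in cluster cells with GSI, 10.14 and 10.56 in Empty-V cells with GSI, 7.80 and 7.54 in cluster cells with DMSO and 7.63 and 7.62 in Empty-V cells with DMSO. Both cluster values lay slightly above the untreated ones. CD69, the early activation marker, read 10.34 and 10.00 in cluster cells with GSI, 11.67 and 11.80 in Empty-V cells with GSI, 9.07 and 9.05 in cluster cells with DMSO and 9.28 and 9.64 in Empty-V cells with DMSO. Its interval of 0.28 to 1.14 leaves out 0, as did that of FCMR (0.04 to 0.89), although neither passed over all probe sets, so a remainder of the rise is within the range of these values. Measured from cluster cells with DMSO, GSI still raised CD69 in cluster cells by 1.11 (adjusted p = 0.0222). The same difference did not pass for FCMR (0.42, adjusted p = 0.345) or BACH2 (0.73, adjusted p = 0.298). The call between both GSI groups reached adjusted p values of 0.148 for BACH2, 0.0504 for FCMR and 0.122 for CD69 when single arrays were left out. GPR18, a G protein-coupled receptor of lymphocytes, and the hyaluronidase CEMIP2 returned as well, at 0.24 and 0.50 above untreated Empty-V cells with GSI rises of 2.36 and 2.63. Of the maturation genes, DNTT, which adds bases at receptor gene joints, and the costimulator CD27 lay 0.38 and 0.44 below untreated Empty-V cells in cluster cells with GSI, without passing.

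**Figure D3:**
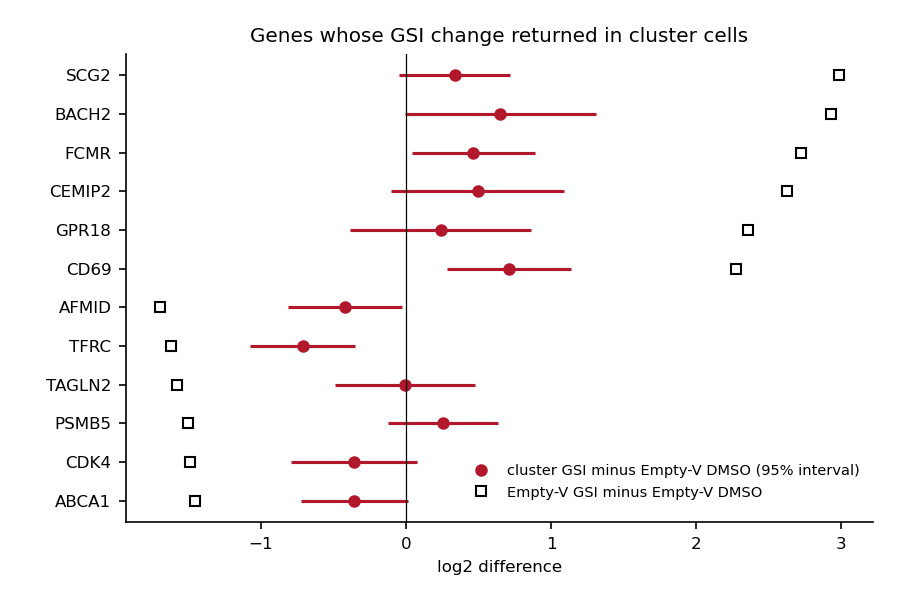
Log2 difference from untreated Empty-V cells for 12 named genes whose GSI change returned, with cluster cells with GSI as filled points with their 95% intervals and Empty-V cells with GSI as open squares. The filled points lie nearer 0 than the squares in every gene, and the intervals of FCMR, CD69, AFMID and TFRC leave out 0.

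The falls that returned as classed over all 8 arrays included genes of growth and the cell cycle, and none of them kept the class without any 1 of the 4 GSI arrays. CDK4, the kinase of cyclin D that starts the cell cycle (chr12:57747727-57752310), read 12.96 and 12.87 in cluster cells with GSI, 12.03 and 11.54 in Empty-V cells with GSI, 13.05 and 13.20 in cluster cells with DMSO and 13.22 and 13.32 in Empty-V cells with DMSO. Its difference from untreated Empty-V cells was −0.36 (95% interval −0.79 to 0.08, adjusted p = 0.428) beside a GSI fall of 1.49 in Empty-V cells, and both GSI groups were 1.13 apart (adjusted p = 0.0364, and 0.0569 to 0.193 without any 1 array). Its promoter is shown because the E-box CACGTG, a core to which MYC binds, was counted in the promoters of every fate. The 300 bases at chr12:57752261-57752560 (GRCh38.p14, minus strand, 250 before the start and 50 after) are given 5′ to 3′ with the 3 matches in capitals.
CDK4: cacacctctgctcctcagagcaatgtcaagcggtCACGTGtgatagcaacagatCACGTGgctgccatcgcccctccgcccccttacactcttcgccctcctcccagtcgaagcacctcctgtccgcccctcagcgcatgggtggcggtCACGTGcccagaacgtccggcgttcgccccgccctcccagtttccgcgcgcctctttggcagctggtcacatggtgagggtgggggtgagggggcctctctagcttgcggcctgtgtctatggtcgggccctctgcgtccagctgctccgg
The matches start 216, 196 and 101 bases before the transcription start. CACGTG, which reads the same on both strands, stood in 15.7% of the promoters of named genes whose fall returned (51 with a promoter), in 10% of those whose fall remained, in 8.69% of all named genes on the array and in 7.43% of all promoters. Falls that were not resolved had it in 13% (409 with a promoter). Among rises it stood in 11.8% of those that returned, 11.1% of those reduced, 6.67% of those that remained and 8.94% of those not resolved. AFMID, TFRC, TAGLN2 and PSMB5, whose falls also returned, had no match, and ABCA1 had 1. These shares are a description of the letters, over few promoters in most classes, and no link between the motif and a return was tested.

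PSMB5, a catalytic subunit of the proteasome, read 9.74 and 9.75 in cluster cells with GSI, 8.00 and 7.97 in Empty-V cells with GSI, 9.81 and 9.75 in cluster cells with DMSO and 9.32 and 9.66 in Empty-V cells with DMSO. Only the Empty-V cells with GSI were low, and the 1.76 between both GSI groups passed (adjusted p = 0.00489). TAGLN2, an actin-binding protein, read 11.40 and 10.83 in cluster cells with GSI, 9.66 and 9.42 in Empty-V cells with GSI, 10.82 and 11.02 in cluster cells with DMSO and 11.06 and 11.18 in Empty-V cells with DMSO. Its difference from untreated Empty-V cells was −0.01 (95% interval −0.49 to 0.48). TFRC, the transferrin receptor through which dividing cells take up iron, read 12.54 and 12.69 in cluster cells with GSI, 11.67 and 11.74 in Empty-V cells with GSI, 13.72 and 13.55 in cluster cells with DMSO and 13.27 and 13.38 in Empty-V cells with DMSO. The cluster cells with GSI stood between the levels, and the interval of −1.07 to −0.35 leaves out 0 (adjusted p = 0.0549). Measured from cluster cells with DMSO, GSI still lowered TFRC in cluster cells by 1.02 (adjusted p = 0.0148). The same difference was −0.035 for PSMB5 and 0.195 for TAGLN2, neither passing.

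Cholesterol and fatty acid synthesis was the list with the most falls that returned, a count of 5 that became 0 without any 1 of the 4 GSI arrays. None of its 26 measured genes was lower in cluster cells with GSI than in untreated Empty-V cells, against 9 in Empty-V cells with GSI, and the median was 0.13 in cluster cells with GSI, against −0.38 in Empty-V cells with GSI. Of all probe sets, 1.09% and 3.66% were lower in these comparisons. Cluster cells with DMSO already lay above untreated Empty-V cells, with a median of 0.30 for the list. Against those DMSO arrays, cluster cells with GSI had a median of −0.175, with 1 gene lower. The 5 that returned were LSS, NSDHL, DHCR7, ACAT2 and FDPS, enzymes of the sterol pathway, whose differences from untreated Empty-V cells ran from −0.16 for DHCR7 to 0.32 for LSS, beside GSI falls of 0.70 (NSDHL) to 1.04 (LSS). LSS, lanosterol synthase, read 10.33 and 9.97 in cluster cells with GSI, 8.52 and 9.06 in Empty-V cells with GSI, 10.34 and 10.25 in cluster cells with DMSO and 9.76 and 9.90 in Empty-V cells with DMSO. SREBF1, the transcription factor of lipid synthesis, was the 1 gene of the list that was higher (0.94), a call that ended without any 1 of the 4 arrays compared (adjusted p = 0.0849 and 0.11 for the cluster arrays, 0.135 and 0.0735 for the Empty-V arrays).

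**Figure D4:**
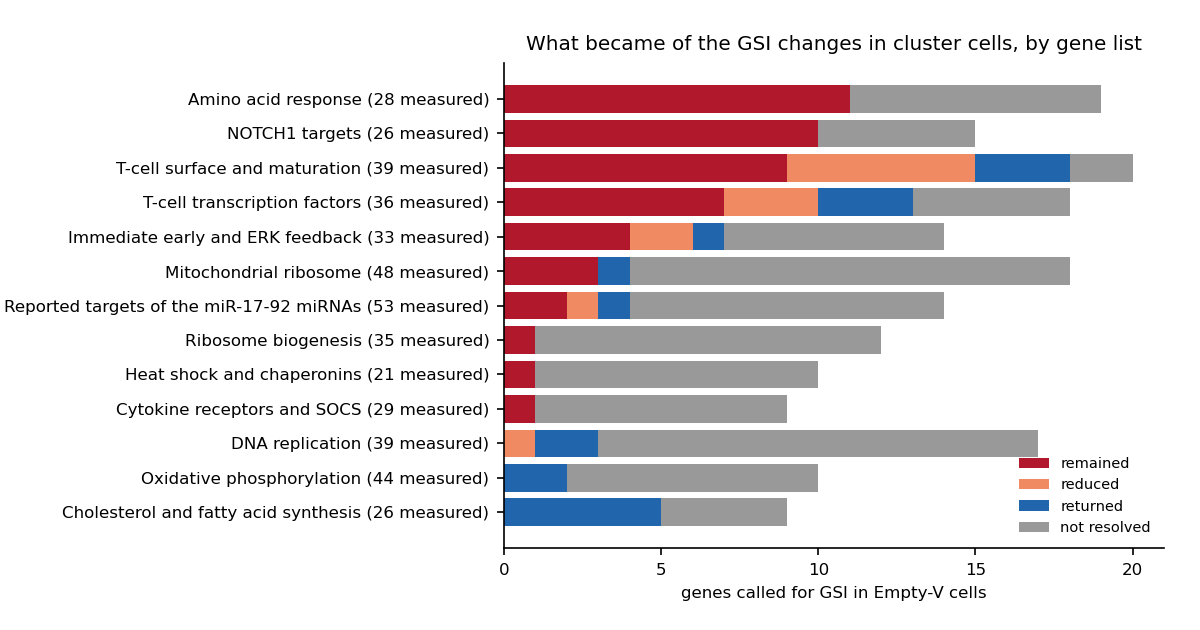
Number of genes called for GSI in Empty-V cells in each gene list with at least 9 such genes, split by what became of the change in cluster cells with GSI. All 11 resolved amino acid response genes and all 10 resolved NOTCH1 targets remained, the 5 resolved cholesterol genes returned, and most replication and mitochondrial genes were not resolved.

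Of the lists of growth and division, each had fewer falls called in cluster cells with GSI than in Empty-V cells with GSI, beside 1.09% and 3.66% of all probe sets. Of 39 DNA replication genes, 1 was lower in cluster cells with GSI than in untreated Empty-V cells, the polymerase subunit POLD2, against 17 lower in Empty-V cells with GSI, with medians of −0.19 and −0.67. RFC2 and CDT1 returned, and 14 could not be resolved. POLD2 (−0.83) lost its call without any 1 array except those of the Empty-V cells with GSI (adjusted p between 0.0715 and 0.242). Of 48 mitochondrial ribosome genes, 3 were lower in cluster cells with GSI, against 18 in Empty-V cells with GSI, with medians of −0.16 and −0.65. Of 44 oxidative phosphorylation genes, none was called, against 10 lower in Empty-V cells with GSI (medians −0.04 and −0.52), and of 32 proteasome genes none, against 5 lower (medians −0.11 and −0.50). Ribosome biogenesis had 2 of 35 lower (UTP20 and NPM1) against 12 (medians −0.31 and −0.54), heat shock proteins and chaperonins 1 of 21 (TRAP1) against 10 (−0.27 and −0.55), and mitosis none of 38 against 3 (−0.02 and −0.32). The calls of UTP20, NPM1 and TRAP1 were all lost without any 1 of the 4 arrays compared (adjusted p between 0.09 and 0.221), as were those of MRPL24 and MRPL32 among the mitochondrial ribosome genes (between 0.0573 and 0.216), while that of MRPL17 held. In each of these lists the median lay nearer that of all probe sets in cluster cells with GSI than in Empty-V cells with GSI. Most of the GSI falls were not resolved gene by gene except in the proteasome list, where 3 of 5 returned (PSMB5, PSMA3 and PSMA6).

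Of 23 CDK inhibitors, pocket proteins and quiescence genes, 4 were higher and 1 lower in cluster cells with GSI than in untreated Empty-V cells, against 6 higher and 1 lower in Empty-V cells with GSI. Beside these counts, 1.47% and 3.8% of all probe sets were higher. The 4 were YPEL5 and YPEL3, linked to quiescence, the arrest cyclin CCNG2 and the CDK inhibitor CDKN1B. GADD45A, a stress-induced growth arrest gene, was lower (−1.35), and the CDK inhibitor CDKN1A was at −0.94 without passing (adjusted p = 0.0571). YPEL5 read 10.31 and 10.16 in cluster cells with GSI, 10.17 and 10.46 in Empty-V cells with GSI, 8.45 and 8.74 in cluster cells with DMSO and 8.25 and 7.98 in Empty-V cells with DMSO. RBL2, a pocket protein that holds cells in quiescence, and PNRC1 returned, at −0.19 and 0.33 beside GSI rises of 0.99 and 1.63. The count of 4 was 1 without replicate 1 of the cluster cells with GSI or either Empty-V array with DMSO, 2 without either cluster array with DMSO, and 3 without any other array.

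**Figure D5:**
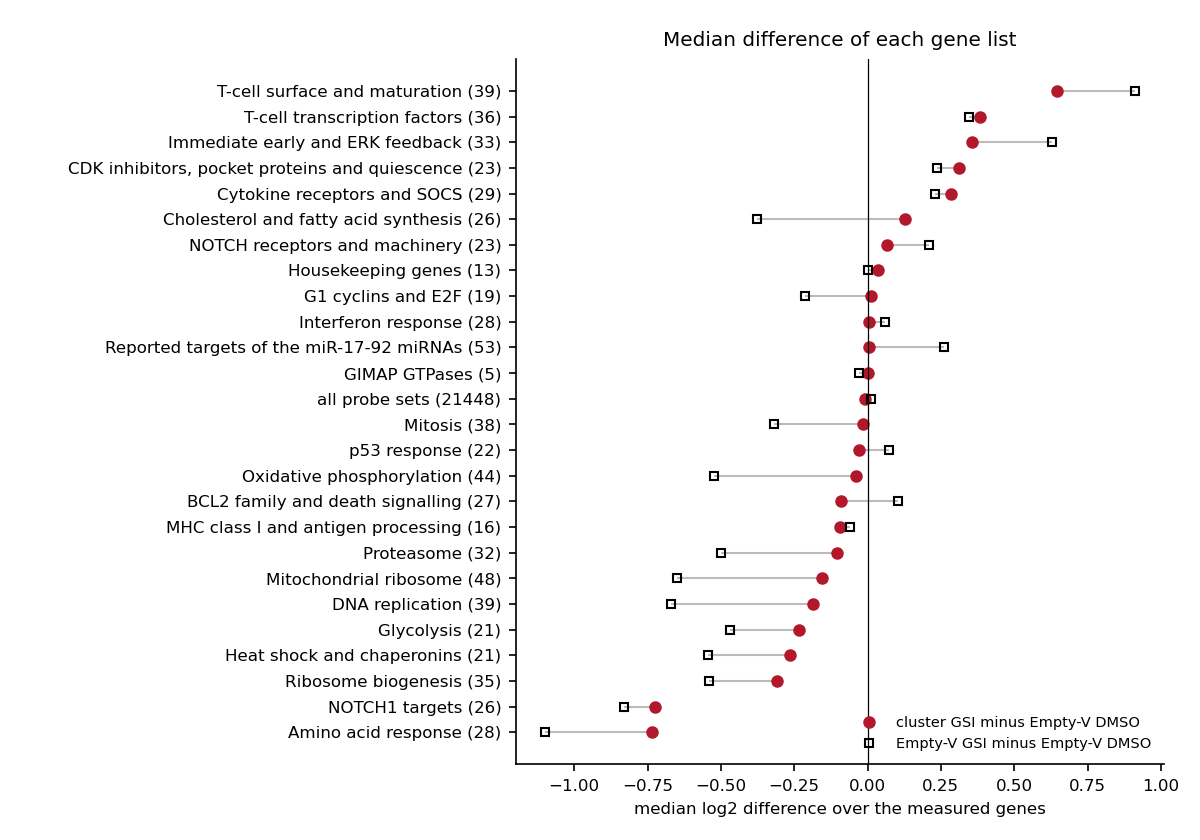
Median log2 difference from untreated Empty-V cells over the measured genes of each list (number in brackets), for cluster cells with GSI as filled circles and Empty-V cells with GSI as open squares. The NOTCH1 targets and the T-cell lists keep most of their distance from 0, while the cholesterol, oxidative phosphorylation and mitosis lists lie within 0.13 of 0 in cluster cells with GSI.

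Messenger RNAs reported as targets of the miR-17-92 miRNAs were 53 of the measured genes. In cluster cells with GSI 2 were lower (SMAD3 and PHLPP2, an AKT phosphatase) and 2 higher (STAT3 and CCNG2) than in untreated Empty-V cells, with a median of 0.01, against 12 higher and 2 lower in Empty-V cells with GSI, with a median of 0.26. Of all probe sets, 1.09% were lower and 1.47% higher in cluster cells with GSI, and 3.8% higher and 3.66% lower in Empty-V cells with GSI. Against Empty-V cells with GSI, 2 of the targets were lower and none higher, beside 0.573% and 0.499% of all probe sets. The median of this last difference was −0.345 for the targets and −0.015 for all probe sets. STAT3, a cytokine-signal transcription factor, read 8.71 and 8.81 in cluster cells with GSI, 9.24 and 9.02 in Empty-V cells with GSI, 8.46 and 8.48 in cluster cells with DMSO and 7.27 and 7.38 in Empty-V cells with DMSO. Only the untreated Empty-V cells were low, and the GSI rise of STAT3 is classed as remained. CCNG2, a cyclin of cell cycle arrest, kept 46.0% of its GSI rise, at 0.90 against 1.96, and lost its call without any 1 of the 4 arrays compared (adjusted p between 0.0852 and 0.126). PHLPP2 lost its call without either array of the cluster cells with GSI or the replicate-2 array of the Empty-V cells with DMSO (adjusted p between 0.0878 and 0.158).

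A further 152 probe sets differed between GSI-treated cluster cells and untreated Empty-V cells without being called for GSI in Empty-V cells, 80 higher and 72 lower. Of these, 31 were also called for the cluster under GSI, 27 for GSI in cluster cells and 2 for the cluster under DMSO, and 98 in none of these. CD8B, the β chain of the CD8 coreceptor, read 8.01 and 8.72 in cluster cells with GSI, 6.54 and 6.10 in Empty-V cells with GSI, 7.40 and 7.42 in cluster cells with DMSO and 6.67 and 6.55 in Empty-V cells with DMSO. Both cluster groups lay above both Empty-V groups, and the difference from untreated Empty-V cells was 1.76 (adjusted p = 0.00573). ITM2A, a membrane protein of activated T cells, read 13.14 and 12.99 in cluster cells with GSI, 11.87 and 11.92 in Empty-V cells with GSI, 11.80 and 11.55 in cluster cells with DMSO and 11.04 and 11.40 in Empty-V cells with DMSO. Its difference was 1.85 (adjusted p = 0.000749). Its highest values were those of cluster cells with GSI. RAG2, the partner of RAG1, read 12.49 and 12.13 in cluster cells with GSI, 11.03 and 11.41 in Empty-V cells with GSI, 11.54 and 11.27 in cluster cells with DMSO and 10.59 and 11.05 in Empty-V cells with DMSO. PEX5L, a relative of a peroxisomal import receptor, had the opposite course, with 5.72 and 6.33 in cluster cells with GSI, 8.01 and 8.10 in Empty-V cells with GSI, 7.00 and 7.24 in cluster cells with DMSO and 8.13 and 8.02 in Empty-V cells with DMSO. Its difference was −2.05 (adjusted p = 0.00103).

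The second-largest rise of the whole comparison fell on TC1300007706.hg.1, one of 3739 probe sets without a gene name, and it is given here because of its value. It read 11.55 and 12.14 in cluster cells with GSI, 6.02 and 6.45 in Empty-V cells with GSI, 11.04 and 10.66 in cluster cells with DMSO and 7.26 and 6.54 in Empty-V cells with DMSO. It was high in all 4 arrays of cluster cells and low in all 4 of Empty-V cells, with 4.95 between cluster cells with GSI and untreated Empty-V cells (95% interval 4.28 to 5.61, adjusted p = 3.58e-05), 5.61 for the cluster under GSI (adjusted p = 0.000194) and 3.95 for the cluster under DMSO (adjusted p = 0.00455).

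The departure of GSI-treated cluster cells from the sum of both single effects passed for 6 probe sets, 0.028% of those tested, all of them lower than the sum. The GSI effect of SFRP2, a secreted WNT inhibitor, depended most on the vector. It read 8.93 and 8.80 in cluster cells with GSI, 10.02 and 10.09 in Empty-V cells with GSI, 9.34 and 9.19 in cluster cells with DMSO and 7.38 and 7.00 in Empty-V cells with DMSO. The cluster alone raised it by 2.08 (adjusted p = 0.00857), GSI alone by 2.87, and both together by 1.68. PRKCH, a protein kinase C of T cells, read 10.39 and 10.54 in cluster cells with GSI, 10.74 and 10.57 in Empty-V cells with GSI, 10.87 and 11.09 in cluster cells with DMSO and 9.07 and 9.22 in Empty-V cells with DMSO. Again only the untreated Empty-V cells were low, and the GSI rise of PRKCH is classed as remained. The count of 6 was at most 2 without any 1 array. NUDT6, a nudix hydrolase, was the single reversed change: it read 6.89 and 7.08 in cluster cells with GSI, 5.00 and 5.46 in Empty-V cells with GSI, 5.91 and 5.91 in cluster cells with DMSO and 5.98 and 5.98 in Empty-V cells with DMSO. Its rise of 1.01 over untreated Empty-V cells lost its call without any 1 of the 4 arrays compared (adjusted p between 0.0942 and 0.145).

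Probe sets with a GSI fall were brighter to begin with. In untreated Empty-V cells the median level was 9.74 for falls that remained and 9.39 for those that returned, against 8.53 and 7.64 for the rises and 5.29 for all probe sets.

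The arrays themselves were alike. Medians lay between 5.3 and 5.36 log2 units, both arrays of a group correlated at 0.994 to 0.995 over all probe sets, and no array stood apart. In keeping with the label, all 10 T-lineage markers lay above the median of all values, with a mean of 12.29 to 12.3 in cluster cells with GSI, 12.51 to 12.68 in Empty-V cells with GSI and 11.94 to 11.95 in untreated Empty-V cells. Of these, CD2, CD5 and LAT were called, LAT losing its call without any 1 array except those of the Empty-V cells with GSI (adjusted p between 0.0508 and 0.192). B-cell markers averaged 5.38 to 5.44 in cluster cells with GSI and 5.18 to 5.32 in untreated Empty-V cells, with 3 of 8 above the median, myeloid markers 5.65 to 5.81 and 5.58 to 5.70 with 2 of 10, and none of the B-cell, myeloid, stromal or erythroid markers was called. The housekeeping list of 13 genes had no call, against 2 lower for GSI in Empty-V cells.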

How the data were processed

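The authors hybridized RNA to Clarion S arrays, deposited log2 values per probe set, made with the SST-RMA routine of Transcriptome Analysis Console; the annotation build is given as hg38 in the supplement. SST-RMA brings the arrays to a common scale and can alter the size of log2 differences. No further scaling was done. Of 21448 probe sets, 17709 carry 1 gene name from the platform annotation and 3739 none; where a gene had several probe sets (2 for 18 genes, 3 for 2 genes) the brightest was taken. Groups come from the titles. A model of 4 group means over all 8 arrays was fitted with limma 3.58.1 (lmFit, eBayes) in R 4.3.3, with 4 residual degrees of freedom, two-sided tests and Benjamini-Hochberg adjustment over all probe sets within a comparison. Values have 2 arrays per group, a number that limits the precision. Positions are those of RefSeq on GRCh38.p14.

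The 30 gene lists (794 genes, 719 measured) and the members were chosen with earlier results of these data known. Named genes are the 10 with the largest difference in each direction among calls whose arrays do not overlap, the 6 of largest GSI change in each fate and direction, the 6 of largest difference in each direction among calls absent for GSI in Empty-V cells, the 6 with a departure from additivity, up to 4 of each list by p, and genes the study names; further list members are named beside their list's count, after their values were seen. Alternatives were leaving out each array, fitting only the arrays compared, the set as a block, quantile normalization, a robust fit with an intensity trend, leaving out probe sets below 5.32, a size of at least 1 and a threshold of 0.1. The code was tested on simulated data. Figures used matplotlib 3.10.9 in Python 3.11.15.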

Additional observations from a re-analysis of the deposited data

Results flagged for a closer look

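In 6 genes the effect of GSI differed between cluster cells and Empty-V cells by a test of the difference itself, in limma's fit over all probe sets: cluster cells with GSI lay below the sum of the cluster effect under DMSO and the GSI effect in Empty-V cells. The departure was −3.27 log2 units in SFRP2 (adjusted p = 0.0067), −2.34 in MCC (0.0295), −2.30 in SCG2 (0.0295), −2.02 in the costimulator ICOS (0.0295), −2.31 in FCMR (0.0397) and −2.03 in PRKCH (0.0412). ICOS read 11.72 and 11.78 in cluster cells with GSI, 13.42 and 13.29 in Empty-V cells with GSI, 11.04 and 11.14 in cluster cells with DMSO and 10.70 and 10.66 in Empty-V cells with DMSO. MCC read 3.43 and 3.53 in cluster cells with GSI, 4.90 and 5.19 in Empty-V cells with GSI, 4.33 and 4.39 in cluster cells with DMSO and 3.64 and 3.53 in Empty-V cells with DMSO. All 8 values of MCC, and those of SCG2 in 3 of the 4 groups, lie below 5.32, the median of all values on the arrays, so these departures rest on dim probe sets. Between 0 and 2 genes passed when any 1 array was left out.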

How the results depend on the processing

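Counts are given in the order GSI-treated cluster cells against untreated Empty-V cells, GSI in Empty-V cells, cluster under GSI, GSI in cluster cells, cluster under DMSO and departure from additivity, then changes that remained, were reduced, returned and were not resolved. As reported they were 549, 1601, 230, 336, 9 and 6, then 371, 25, 121 and 1083. A threshold of 0.1 gave 916, 2599, 927, 623, 9 and 21, then 527, 65, 471 and 1533. A size of at least 1 gave 363, 693, 162, 242, 9 and 6, then 226, 18, 56 and 393. Leaving out dim probe sets, with fewer tests to adjust for, gave 903, 2358, 912, 581, 43 and 14, then 530, 80, 510 and 1236. An intensity trend with a robust fit gave 1005, 2551, 1232, 721, 45 and 111, then 561, 109, 666 and 1212. Fitting only the 4 arrays compared, with fewer samples, gave 316, 841, 34, 177 and 0, the departure needing all 4 groups. The classes of change need 3 groups, and their fit over those 6 arrays (1310 GSI calls, 85 for the cluster under GSI) gave 303, 16, 47 and 944. Quantile normalization gave 559, 1579, 249, 335, 5 and 6, then 368, 32, 128 and 1050, and left the median of all differences at −0.01. Leaving out 1 array gave 208 to 484, 514 to 1310, 4 to 85, 127 to 285, 0 to 3 and 0 to 2, then 160 to 303, 0 to 16, 1 to 47 and 274 to 1106. Where not stated, the cause of a change was not tested.

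The set number as a replicate block gave 314, 825, 33, 178, 3 and 1, then 226, 6, 17 and 576. All 314 were among the 549, and 213 of the 226 and 16 of the 17 among the changes so classed without the block. Arrays of the same set did not deviate together: the correlations over 6 pairs were all negative, from −0.24 to −0.19. The mean difference between the sets had a standard deviation of 0.099 over all probe sets, against 0.169 for independent arrays. Whether the sets mark shared experiments is not decided by these values, so counts with and without the block are both given. The block took the call from 21 of 84 called named genes, turned CCR9, CHI3L2 and IER3, among others, from reduced to remained, and left CDK4 and TFRC, among others, unresolved. Of 38 named genes called for the cluster under GSI it kept 18, RAG1 (adjusted p = 0.0772) not among them. The returned changes were 13 rises and 4 falls with it, and the quiescence list had 1 gene higher in place of 4. Crossing the set numbers gave 439. The read in the other set with 250 probe sets gave medians of 0.90 (rises) and −0.70 (falls) for set 2, 0.82 and −0.58 for set 1. The crossed block, the 250 probe sets and the alternatives for GSI in cluster cells, the cluster under DMSO and the departure were added after seeing the data. No named gene that was called turned its sign; named genes that were not called had no direction to keep. Without 1 array 57 to 77 of the 84 kept their call. With 2 arrays a group, differences with a median SE of 0.20 can be measured, and most changes near the median GSI change cannot be placed.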

Other observations

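Lists outside the main account held few calls, beside 1.47% of all probe sets higher and 1.09% lower. Of 27 BCL2 family and death-signalling genes, the initiator caspase CASP8 was higher (0.73) and the BH3-only gene PMAIP1 lower (−0.91) in cluster cells with GSI than in untreated Empty-V cells, and each lost its call when any 1 of the 8 arrays was left out (adjusted p between 0.059 and 0.267). Of 28 interferon response genes, IRF1 was lower (−0.85), a call that ended in the same way (0.0538 to 0.216). PMAIP1 was also the 1 gene called, lower, among 22 p53 response genes. No call fell on the 16 MHC class I and antigen processing genes or the 5 GIMAP GTPases.

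The study grouped genes into modules on these same arrays, which is no independent evidence of their direction. Of its module A genes rising with GSI, 505 were measured and 203 were higher in cluster cells with GSI than in untreated Empty-V cells, with a median of 0.77, against 0.96 in Empty-V cells with GSI. Of the falling genes of module A, 141 of 353 were lower, with medians of −0.75 and −0.96. Of 335 genes in one direction of module B, 4 were lower and 55 returned, with a median of −0.16 in cluster cells with GSI, against −0.91 in Empty-V cells with GSI. Of the 327 in the other, 14 were higher and 1 lower and 46 returned, with medians of 0.13 and 0.86.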
